A study of Mus musculus with 2 samples.

Results

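Lefty-positive cells were the 186 mouse embryonic stem cells of the PD100 library that carried at least 1 unique molecular identifier (UMI, the tag that marks 1 captured transcript) of Lefty1 or Lefty2. They were chosen among 777 PD100 stem cells and made up 23.9% of them (95% interval 21.0 to 27.1). The 2 libraries of the series together held 1714 cells. A barcode counted as a cell with 1000 or more UMIs and at most 20% mitochondrial UMIs, which 814 of 1291 PD100 barcodes met. A further 37 cells were then left out because they held 5 or more UMIs of the endoderm genes Col4a1, Col4a2, Srgn, Gata6 and Gata4. The other 591 stem cells had 0 Lefty1 and Lefty2 UMIs and are called Lefty-zero cells. Because Lefty1 and Lefty2 chose the cells, their levels are a description, and both genes were left out of every comparison.

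Lefty1 and Lefty2 encode secreted proteins of the TGFβ superfamily that block Nodal, a ligand of the same superfamily. Nodal acts through activin receptors and the co-receptor Cripto, encoded by Tdgf1, on Smad2 and Smad3, which enter the nucleus with Smad4 and bind DNA together with factors such as Foxh1. Both Lefty genes are themselves targets of this signal, so the pathway induces its own inhibitors, and in mouse embryonic stem cells the Lefty genes are known for uneven levels from cell to cell. BMP signalling, a parallel branch that uses Smad1 and Smad5, induces the Id genes in the same cells.

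The cells were Terc knock-out (Terc-/-) embryonic stem cells of the DKO741 line, derived from the E14 line by targeting both alleles of the telomerase RNA gene. PD100 was harvested before alternative lengthening of telomeres (ALT) was established, and PD800 from ALT survivors of the same line. The sources differ on what 100 and 800 count, since the labels give passages in one field and PDL in another, and the study uses PD for population doublings. Feeder fibroblasts were used to maintain the line, and feeder-free cultures for experiments. Single cells were captured with inDrops, a droplet method, in 1 library per time point. DKO741 is 1 line without a Terc+/+ library at either time point, so time in culture, library and clonal history cannot be told apart. Cells of 1 library are not replicates. No test was therefore made, and the 95% intervals given throughout reflect counting error alone.

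The PD100 stem cells held 1006 to 5524 UMIs with a median of 2143. Terc itself had 0 UMIs in the PD100 table, although its RNA has no poly(A) tail and may escape capture, so this checks little. Among barcodes, 21 occurred in both libraries' data, of which 3 were Lefty-positive cells and 1 was a matched Lefty-zero cell. Scrublet called 14 doublets among the 814 PD100 cells (1.72%), 5 of them Lefty-positive, and these were kept. At the limit for endoderm genes, 1 Lefty-positive cell held 4 such UMIs, just inside, and 2 cells with 5 lay just outside.

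Lefty1 and Lefty2 are neighbouring paralogs on chromosome 1 whose coding sequences were 92.0% identical over 1108 aligned columns (GENCODE M21 transcripts, GRCm38). The 3′ ends, from which inDrops primes, were less alike. Of the 471 words of 30 bases in the last 500 bases of the Lefty2 transcript, 0 occurred in the Lefty1 transcript. In the other direction 31 of 471 words were shared. Reads from the shared coding part could have been given to either gene, and how the counting treated them is not given in the sources used here.

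Lefty levels were low and unequal among the positive cells. Together they held 548 Lefty UMIs, 326 of Lefty1 and 222 of Lefty2, from 1 to 16 in a cell with a median of 2. At 1 UMI stood 72 cells (38.7%), just inside the rule, whereas 69 cells had 2 to 3, 45 cells had 4 or more and 10 cells had 10 or more. The 19 cells with the most Lefty UMIs held 196 of the 548 (35.8%).

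Lefty1 alone was counted in 77 cells, Lefty2 alone in 70 and both in 39. Cells with both carried a median of 5 Lefty UMIs. Lefty2 was counted in 33.6% of the 116 cells with Lefty1 and in 10.6% of the 661 cells without it, so Lefty2 was more frequent where Lefty1 was counted. Cells with both were also deeper, with a median of 2407 UMIs against 2169 for Lefty1 alone and 2266.5 for Lefty2 alone. High cells could nevertheless hold a single paralog. The highest Lefty1 cell had 16 UMIs of Lefty1 and 0 of Lefty2, and the highest Lefty2 cell had 15 of Lefty2 and 0 of Lefty1.

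**Figure D1:**
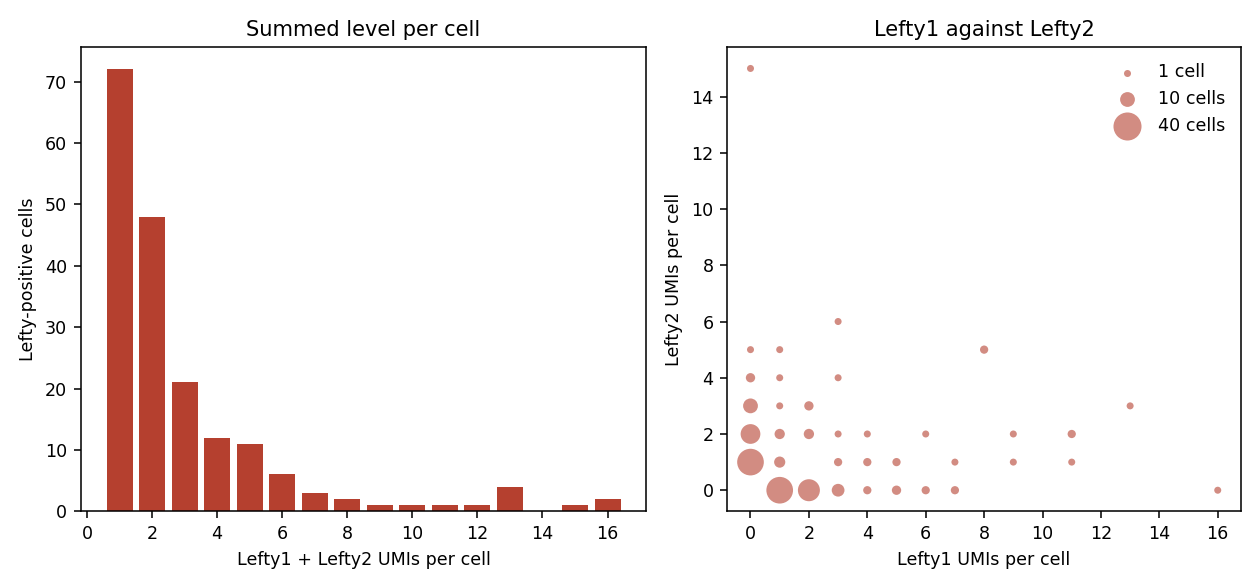
Left, number of Lefty-positive PD100 cells (y axis) at each sum of Lefty1 and Lefty2 UMIs (x axis); right, Lefty1 against Lefty2 UMIs per cell, with the area of a circle growing with the number of cells. A long tail reached 16 UMIs, 72 cells had 1 UMI, and 39 cells lay off both axes of the right panel.

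Detection depended on depth. In 4 groups of the stem cells by total UMIs, equal in size, 15.9% of the shallowest and 29.9% of the deepest cells were Lefty-positive, with 24.2% and 25.8% between. When every cell was thinned to 1000 UMIs, 16.1% of PD100 stem cells (13.6 to 18.9) still had a Lefty UMI. In PD800, 13 of 900 cells had one (1.44%, 0.771 to 2.46) although the cells were deeper, with a median of 2701.5 UMIs. These 13 cells held 14 Lefty UMIs and no more than 2 each, and the thinned share was 0.889% (0.385 to 1.74). With 1 library each, the difference between the time points was not tested.

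The 37 endoderm-marker cells of PD100, in which Lefty was not the marker used, were counted for comparison. A Lefty UMI was found in 3 of them (8.11%, 1.70 to 21.9), at a median of 2418 UMIs, and in 1 (2.70%, 0.0684 to 14.2) after thinning. Both intervals are wide and overlap those of the stem cells. Whether the Lefty UMIs of the endoderm-marker cells were expressed there or came from free RNA was not tested. The part of free RNA in the 72 cells with 1 Lefty UMI was not tested either.

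Each Lefty-positive cell was paired with the Lefty-zero cell nearest in total UMIs, and all 186 found a partner. Paired totals differed by a median of 3 and at most 198 UMIs. The positive cells had medians of 2260 UMIs, 1095 genes, 1.21% mitochondrial UMIs and 15.2% ribosomal protein UMIs. Their partners had 2261.5 UMIs, 1088 genes, 1.20% and 14.9%. By these measures the sets were alike.

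The stem cell label held in both sets. Summed over 10 markers (Pou5f1, Sox2, Sall4, Utf1, Lin28a, Dppa5a, Zfp42, Tdgf1, Nanog and Esrrb), all of them counted, the level was 12226 CPM (UMIs per 1000000 UMIs of the set) in Lefty-positive and 11954 CPM in matched Lefty-zero cells (log2 ratio 0.03, -0.02 to 0.09), against 5896 CPM in the endoderm-marker cells. Dppa5a alone held most of the 5426 and 5301 UMIs of this sum in Lefty-positive and matched cells. Of the 17 extraembryonic endoderm markers, 10 were counted in Lefty-positive cells, at 157 UMIs against 156 in the matched cells, and Gata6, Sox7 and Pdgfra were at 0. This list includes all genes of the endoderm limit, which had kept cells high in them out of both sets. Low values of these genes, Gata6 among them, were thus partly set beforehand. Fibroblast markers gave 58 against 47 UMIs, with Col1a1 and Col1a2 at 0. Of 12 mesendoderm markers, 5 were counted with 10 UMIs in all against 4, and T, Gsc and Mixl1 were at 0.

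For each gene, UMIs were summed over the 186 Lefty-positive and over the 186 matched Lefty-zero cells and divided by the totals of the sets, each without the Lefty UMIs. Ratios were described for the 2921 genes with 50 or more UMIs in both sets together. Of these, 152 (5.2%) were at least 1.5-fold higher in Lefty-positive cells and 155 (5.31%) at least 1.5-fold lower. The counting interval lay above a ratio of 1 for 177 genes (6.06%) and below it for 185 (6.33%). Most genes were thus close to equal, and neither direction prevailed.

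At the upper end, ranked by the end of the interval nearer to a ratio of 1, stood Ctc1, Ifi30, Frmd8, Krt42, Otx2, Platr17, 4921524J17Rik, Trim8, Mad2l2, 0610007P14Rik, Trh and Smarca4. Ctc1, a subunit of the CST complex that acts in telomere replication, had 42 UMIs in 29 positive cells and 11 UMIs in 10 matched cells (log2 ratio 1.93, 0.95 to 3.04). Otx2, a homeobox factor of formative and primed pluripotency, had 52 UMIs in 33 positive cells and 19 in 14 matched cells (1.45, 0.67 to 2.29). No cell held more than 4 Otx2 UMIs. Thinned to 1000 UMIs, the sets were closer, with an Otx2 UMI in 14 of 186 positive (7.53%, 4.18 to 12.3) and 11 of 186 matched cells (5.91%, 2.99 to 10.3) and a log2 ratio of 0.50, under 1.5-fold.

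Trh, which encodes the precursor of thyrotropin-releasing hormone, was the most abundant of the 12. It had 268 UMIs (604 CPM) in 94 positive cells and 163 UMIs (368 CPM) in 68 matched cells (0.72, 0.43 to 1.01). Thinned to 1000 UMIs, 35.5% of positive (28.6 to 42.8) and 22.0% of matched cells (16.3 to 28.7) had a Trh UMI, and unthinned these shares were 50.5% and 36.6%. Smarca4, the ATPase Brg1 of the BAF chromatin remodelling complex, had 70 against 34 UMIs (1.04, 0.43 to 1.68). Mad2l2, a subunit of DNA polymerase zeta and of shieldin, had 53 against 22 UMIs (1.27, 0.53 to 2.06). Ifi30, a lysosomal thiol reductase, had 51 against 16 UMIs (1.67, 0.84 to 2.58).

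At the lower end stood Tmem60, Dld, Folr1, Cd320, Dcaf13, Mtfr1, Tmsb4x, Ccs, Bmp4, Rbck1, Cebpz and Dhx15. Tmem60 had 10 UMIs in Lefty-positive and 44 in matched cells (-2.14, -3.29 to -1.13). Dld, the dihydrolipoamide dehydrogenase shared by the glycine cleavage system and mitochondrial dehydrogenases, had 18 against 50 UMIs (-1.48, -2.34 to -0.67). Folr1, a folate receptor, had 19 against 48 UMIs (-1.34, -2.19 to -0.54), and Cd320, the receptor for transcobalamin-bound vitamin B12, had 25 against 58 (-1.22, -1.95 to -0.52). Tmsb4x, the actin-binding thymosin β4, had 84 against 150 UMIs (-0.84, -1.24 to -0.44). Tmsb4x has processed copies elsewhere in the genome, which the counting could have split.

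These 24 genes were picked from 2921 for their values in 1 set of partners, and median differences were smaller against all Lefty-zero cells. Those cells include the same partners and faced the same positive cells, so kept directions and sizes are no independent check. When all 591 Lefty-zero cells were used, weighted to the depth of the positive cells, the highest 12 genes kept their direction and 11 stayed past 1.5-fold, all but Trim8 (0.41). Their median log2 ratio was 0.84 in place of 1.42. Of the lowest 12, which also kept their direction, 10 stayed past 1.5-fold, all but Ccs and Cebpz (both -0.55), with a median of -0.83 in place of -1.20. Otx2 stood at 0.90, Trh at 0.74 and Bmp4 at -0.94.

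**Figure D2:**
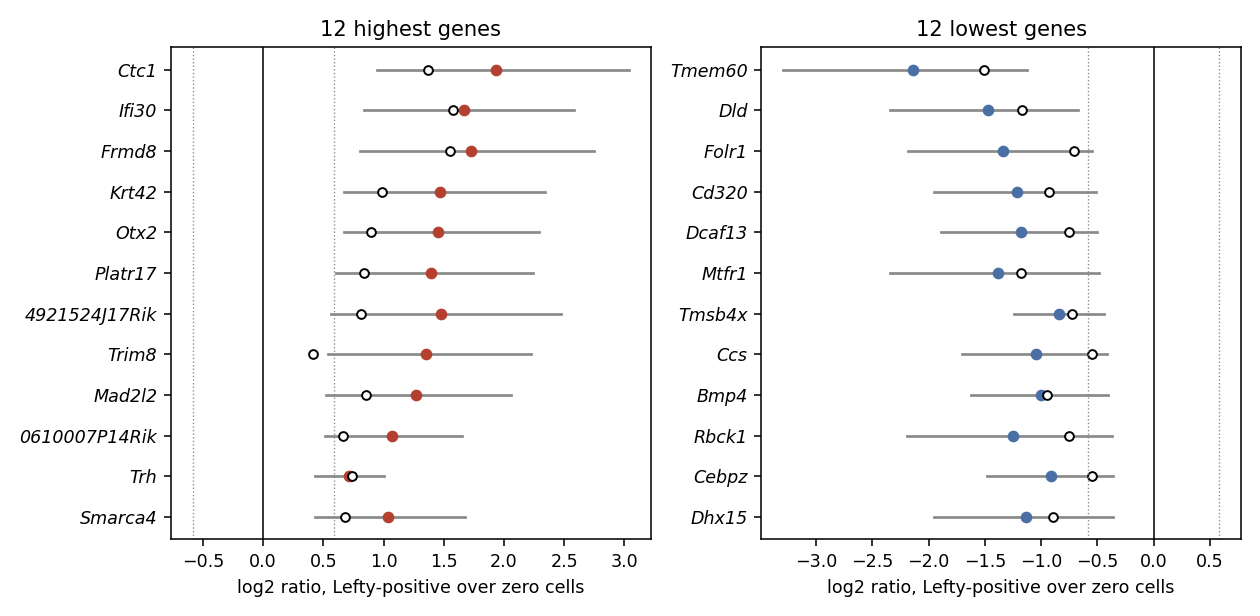
Log2 ratio (x axis) of Lefty-positive over Lefty-zero cells for the 12 highest and the 12 lowest of 2921 genes; filled points use 186 matched cells, with lines for the 95% counting interval, open points use all 591 Lefty-zero cells weighted by depth, and dotted lines mark 1.5-fold. Open points lie nearer to 0 for most genes, while Trh (0.72 and 0.74) and Bmp4 (-1.00 and -0.94) barely differ between both.

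The Nodal pathway genes with enough UMIs to compare differed little. Of 44 genes in 5 lists, 9 reached 50 UMIs. Of these, 0 were 1.5-fold higher and 0 were 1.5-fold lower, with log2 ratios from -0.37 to 0.35 and a median of -0.07. Over all genes 10.5% passed 1.5-fold either way, and 9 genes are too few to tell 0 from this share. Among ligands and their processing, Gdf3, a ligand that can pair with Nodal, had 60 against 72 UMIs (-0.26, -0.78 to 0.25), and the convertase gene Furin had 35 against 31 (0.17, -0.57 to 0.92).

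Tdgf1, the Nodal co-receptor, had 292 UMIs (658 CPM) in Lefty-positive and 249 UMIs (562 CPM) in matched cells (0.23, -0.02 to 0.48). Drap1, a repressor that binds Foxh1, had 57 against 67 UMIs (-0.23, -0.77 to 0.30). Tgif1, a repressor of Smad-driven transcription, had 90 against 72 UMIs (0.32, -0.14 to 0.79). Nomo1, from the same list of Nodal inhibitors and feedback genes, had 28 against 22 (0.35, -0.51 to 1.22). All of these intervals include a ratio of 1. Among genes listed as Nodal targets, Ccnd1 (cyclin D1) stood at -0.07, Cdkn1c (the cell cycle inhibitor p57) at -0.25 and Id3 at -0.37.

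Most genes of the pathway had under 50 UMIs, and their intervals are wide. Nodal itself, named after its values were seen, had 27 UMIs in Lefty-positive and 21 in matched cells (0.36, -0.52 to 1.26), Smad2 21 against 11 (0.93, -0.19 to 2.13) and the inhibitory Smad7 26 against 14 (0.89, -0.10 to 1.94). Summed over whole lists, the 8 receptors and co-receptors gave 312 against 260 UMIs (0.26, 0.02 to 0.50), of which Tdgf1 held 292 and 249. The list of inhibitors and feedback genes gave 187 against 148 UMIs (0.34, 0.02 to 0.66). Signal transducers gave 106 against 95 UMIs (0.16, -0.26 to 0.57).

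Among BMP pathway genes, Bmp4 and Id1 were lower in Lefty-positive cells. Bmp4, which encodes a BMP ligand, had 36 UMIs (81.1 CPM) in 25 positive cells and 72 UMIs (162 CPM) in 34 matched cells (-1.00, -1.62 to -0.40), and kept 1.5-fold in 18 of 18 alternative settings, from -1.58 to -0.82. The settings reuse many of the same cells. A limit of 10% mitochondrial UMIs could not change any ratio, since no stem cell exceeded 5.27%. Summed over the 12 genes of the list, 1109 UMIs faced 1495 (-0.43, -0.55 to -0.32). Most of these were of Id1, a BMP target and inhibitor of basic helix-loop-helix factors, named after its values were seen. Id1 had 979 UMIs (2206 CPM) in 152 positive cells and 1295 UMIs (2920 CPM) in 161 matched cells (-0.40, -0.53 to -0.28). Its direction held in 18 of 18 alternatives, from -0.61 to -0.26, but it passed 1.5-fold in 1. Id3 had 58 against 75 UMIs (-0.37, -0.89 to 0.14). Of the 3 genes of the list with 50 or more UMIs, 1, Bmp4, was at least 1.5-fold lower, beside 5.31% of all genes, and the other 9 genes of the list were too sparse to enter this count.

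Core pluripotency genes were mostly alike in both sets. The list of 12 summed to 5594 UMIs in Lefty-positive and 5548 in matched cells (0.01, -0.04 to 0.06), of which Dppa5a alone held 4041 and 3943, and 0 of its 11 genes with 50 or more UMIs passed 1.5-fold either way, beside 10.5% of all genes. Pou5f1 (Oct4) had 232 against 254 UMIs (-0.13, -0.40 to 0.13), Sox2 97 against 84 (0.21, -0.23 to 0.65) and Zfp42 (Rex1) 254 against 265 (-0.06, -0.32 to 0.19). Dppa4, named after its values were seen, was lower without reaching 1.5-fold, at 105 against 144 UMIs (-0.46, -0.83 to -0.08).

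Naive pluripotency genes summed to 1048 against 955 UMIs (0.13, 0.01 to 0.26), and 1 of 7 was at least 1.5-fold higher, beside 5.2% of all genes. This was Nr0b1 (Dax1), an orphan nuclear receptor, with 62 against 31 UMIs (1.00, 0.35 to 1.67). The Krüppel-like factor gene Klf2, named after its values were seen, stood just under this at 180 against 123 UMIs (0.55, 0.21 to 0.89). Nanog had 34 against 23 UMIs (0.56, -0.24 to 1.39), but stood at -0.02 against all Lefty-zero cells, and Klf4 had 22 against 30 (-0.45, -1.31 to 0.39). Esrrb, with 16 against 13 UMIs, and Dppa3, with 14 against 14, were too sparse for a ratio.

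Otx2 was the 1 gene of 6 formative and primed genes past 1.5-fold, beside 5.2% of all genes at least 1.5-fold higher. The list as a whole summed to 390 UMIs in Lefty-positive and 388 in matched cells (0.01, -0.20 to 0.21). Dnmt3b, a de novo DNA methyltransferase of primed cells, had 38 against 26 UMIs (0.55, -0.21 to 1.32) but stood at -0.03 against all Lefty-zero cells. Fgf5, another primed marker, had 5 UMIs in 2 positive cells and 0 in the matched cells, which is near the limit of 3 counts that a count of 0 allows.

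Trophoblast genes summed lower and neural genes higher in Lefty-positive cells. The 11 trophoblast genes gave 142 against 230 UMIs (-0.70, -1.01 to -0.39), and 1 of 2 with 50 or more UMIs was at least 1.5-fold lower, beside 5.31% of all genes. Krt18, a keratin of simple epithelia and trophoblast, had 70 UMIs in 28 positive cells and 121 in 40 matched cells (-0.79, -1.24 to -0.35), although 1 positive cell held 25 of its 70 UMIs, and against all Lefty-zero cells the ratio was -0.35. Without that cell and its partner, 45 faced 119 UMIs (-1.40, -1.93 to -0.90). Its partner Krt8, named after its values were seen, had 34 against 45 UMIs (-0.41, -1.09 to 0.27), and the trophoblast markers Cdx2, Elf5, Hand1 and Gata3 were at 0 in Lefty-positive cells. Rhox6 and Rhox9, homeobox genes of the same list named after their values were seen, had 3 against 18 UMIs (-2.59, -4.99 to -0.81) and 1 against 12 (-3.59, -9.00 to -0.83), each in 6 matched cells. Keratin genes have processed copies, which the counting could have split. The 8 neural genes gave 106 against 65 UMIs (0.70, 0.25 to 1.17), and 1 of 2 with 50 or more UMIs was at least 1.5-fold higher, beside 5.2% of all genes. Ina, a neuronal intermediate filament gene, had 62 UMIs in 37 positive cells and 32 in 23 matched cells (0.95, 0.32 to 1.62), and Sox1 was at 0.

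**Figure D3:**
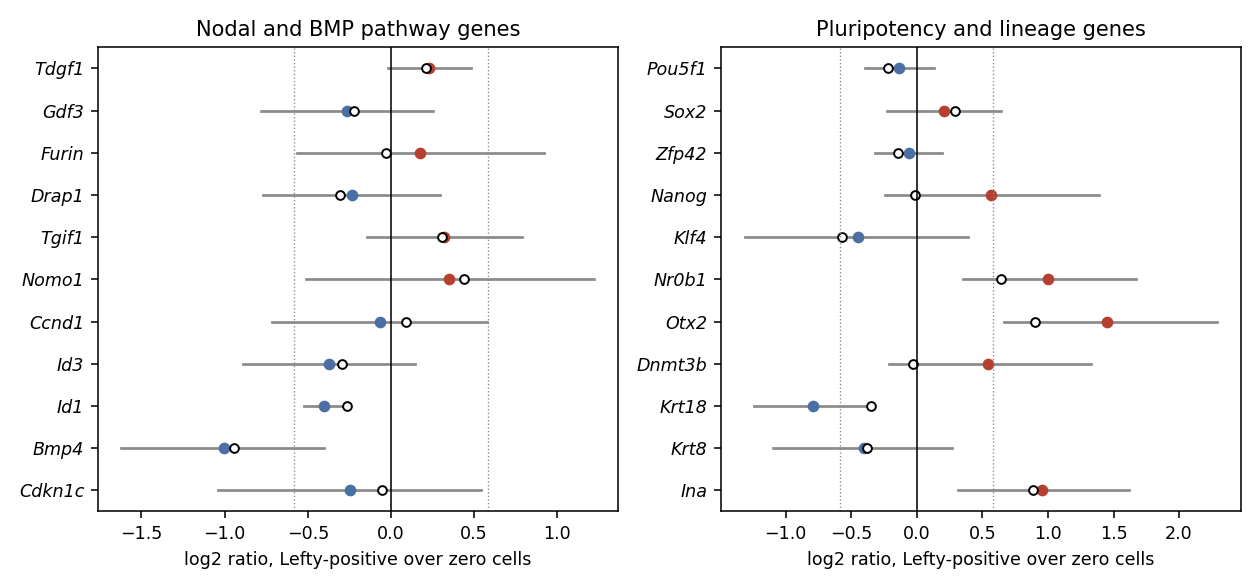
Log2 ratio (x axis) of Lefty-positive over Lefty-zero cells for Nodal and BMP pathway genes (left) and pluripotency and lineage genes (right), with filled points for 186 matched cells, lines for the 95% counting interval and open points for all 591 Lefty-zero cells weighted by depth. Nodal pathway genes and Pou5f1, Sox2 and Zfp42 lie near 0, Bmp4 (-1.00) and Id1 (-0.40) below it, and Otx2 (1.45), Nr0b1 (1.00) and Ina (0.95) above it.

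Across all 26 lists, 140 genes had 50 or more UMIs, 7 of them at least 1.5-fold higher and 4 at least 1.5-fold lower, beside 5.2% and 5.31% of all genes. In the cell cycle lists, S phase genes summed to 1668 against 1756 UMIs (-0.08, -0.17 to 0.02). Mcm4, a subunit of the replicative helicase, had 41 against 25 UMIs (0.71, -0.04 to 1.49), with an interval that includes a ratio of 1, and Rrm1, a subunit of ribonucleotide reductase, had 37 against 68 (-0.88, -1.50 to -0.28). Genes of G2 and mitosis were equal at 2090 against 2094 UMIs, and of these 18 genes the mitotic checkpoint kinase gene Bub1 alone passed 1.5-fold (32 against 21 UMIs, 0.61, -0.23 to 1.47). Its interval includes a ratio of 1, and against all Lefty-zero cells it stood at 0.24. The sets were thus close in cell cycle genes.

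Among glycolysis genes 1 of 13 was at least 1.5-fold higher, beside 5.2% of all genes. This was Pfkp, a phosphofructokinase gene, with 35 against 17 UMIs (1.04, 0.17 to 1.97). Gldc, which encodes the glycine decarboxylase, had 47 against 36 UMIs (0.38, -0.27 to 1.05). S100a6, a calcium-binding protein gene, had 67 against 56 UMIs (0.26, -0.28 to 0.80), Krt17, a keratin gene, 34 against 20 (0.76, -0.07 to 1.64) and Plaur, the urokinase receptor gene, 14 against 26 (-0.89, -1.95 to 0.10). Hmgn1, a nucleosome-binding protein gene, was equal at 395 against 373 UMIs (0.08, -0.13 to 0.29). Imprinted genes summed to 744 against 845 UMIs (-0.18, -0.33 to -0.04), with 0 of 7 past 1.5-fold, beside 10.5% of all genes either way. The noncoding Meg3, named after its values were seen, had 167 against 237 (-0.51, -0.80 to -0.21). H19 of the same list had 17 against 14 UMIs, Fgfbp1 19 against 22 and Taf5l 24 against 22, with intervals that include a ratio of 1.

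Among Lefty-positive cells, those with Lefty2 alone differed from those with Lefty1 alone in several named genes. The 70 Lefty2-only cells held 134 Trh UMIs and the 77 Lefty1-only cells 62 (828 and 339 CPM, log2 ratio 1.29, 0.84 to 1.75). Tdgf1 had 153 against 85 UMIs (945 and 465 CPM, 1.02, 0.63 to 1.42). In the opposite direction, Nodal had 2 against 22 UMIs (-3.28, -6.42 to -1.26), and 2 against 17 without the Lefty1-only cell that held the most. Krt18 had 14 against 47 UMIs (-1.57, -2.55 to -0.69), but 1 Lefty1-only cell held 25 of the 47, and without it 14 faced 22 (-0.49, -1.57 to 0.54). Pou5f1 was equal at 81 against 94 UMIs (-0.04, -0.49 to 0.40). Over 1343 genes with 50 or more UMIs in these cells, 91 were at least 1.5-fold higher and 83 at least 1.5-fold lower in the Lefty2-only cells. In the main comparison of Lefty-positive with matched cells, 5.2% and 5.31% of 2921 genes were that far apart. The contrast was chosen after values had been seen.

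Against their own partners, Lefty1-only cells had 62 Trh UMIs against 79 (-0.35, -0.85 to 0.15), Lefty2-only cells 134 against 60 (1.16, 0.71 to 1.62) and cells with both 72 against 24 (1.59, 0.90 to 2.32). Trh was thus higher in both subsets with Lefty2, and its interval included a ratio of 1 in the subset without it. Without the top Trh cell of the subset and its partner, Lefty1-only cells had 55 against 79 Trh UMIs (-0.52, -1.05 to -0.01). In the same way Lefty2-only cells had 115 against 60 (0.94, 0.47 to 1.41) and cells with both 61 against 24 (1.35, 0.64 to 2.09). For Tdgf1, cells with both had 54 UMIs against 85 in Lefty1-only cells (545 and 465 CPM), and this interval included a ratio of 1 (0.23, -0.29 to 0.74). Against their own partners, without the top Tdgf1 cell and its partner, cells with both had 47 against 54 Tdgf1 UMIs (-0.20, -0.79 to 0.39). By the same count Lefty1-only cells were lower, at 79 against 112 (-0.51, -0.94 to -0.08). Lefty2-only cells were higher, at 140 against 75 (0.90, 0.48 to 1.32). Krt18 had 47 against 32 UMIs in Lefty1-only cells (0.55, -0.13 to 1.25), 14 against 52 in Lefty2-only cells (-1.90, -2.86 to -1.02) and 9 against 37 in cells with both (-2.04, -3.27 to -0.96). Without the cell with 25 UMIs and its partner, Lefty1-only cells had 22 against 30 (-0.45, -1.31 to 0.39), so the direction there rested on 1 cell. Id1 was lower in all 3 subsets, at -0.31, -0.38 and -0.61.

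By Lefty level, some differences were larger where more Lefty UMIs were counted. Id1 gave 389 against 419 UMIs in the 72 cells with 1 Lefty UMI (-0.11, -0.31 to 0.09), 341 against 476 in the 69 cells with 2 to 3 (-0.48, -0.69 to -0.28) and 249 against 400 in the 45 cells with 4 or more (-0.68, -0.92 to -0.45). In the first step 1 cell held 44 Id1 UMIs, and without it and its partner 345 faced 415 (-0.27, -0.48 to -0.06). The later steps without their top cells and partners gave -0.60 and -0.83. Trh gave 0.41, 0.37 and 1.88. Krt18 gave 0.50, -1.61 and -2.08, and the first of these turned to -0.61 (-1.53 to 0.27) without the cell with 25 UMIs and its partner. Otx2, at 1.58, 1.51 and 1.28, did not follow the Lefty level. The cells of these steps also differed in depth, with medians of 2090.5, 2291 and 2473 UMIs, and each step was set against its own partners. Compared directly, the 45 cells with 4 or more and the 72 with 1 Lefty UMI differed in Trh (0.49, 0.04 to 0.94), although without 1 cell with 19 Trh UMIs the ratio was 0.16 (-0.33 to 0.64), whereas for Id1 the interval included a ratio of 1 (-0.15, -0.39 to 0.08). Without the cell with 44 Id1 UMIs this Id1 ratio was -0.01 (-0.25 to 0.23). Without the top Id1 cell of the other step it was -0.27 (-0.52 to -0.03).

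**Figure D4:**
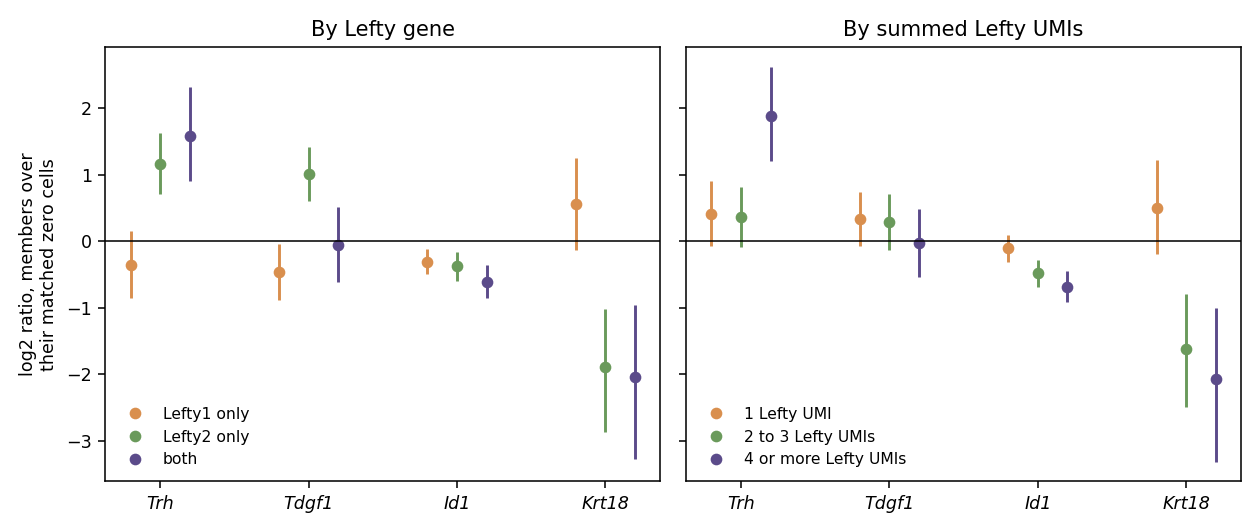
Log2 ratio (y axis, with 95% counting intervals) of Lefty-positive cells over their own matched Lefty-zero cells for 4 genes, with the positive cells split by which Lefty gene was counted (left: 77, 70 and 39 cells) and by summed Lefty UMIs (right: 72, 69 and 45 cells). The values of Krt18 above 0 rest on 1 cell with 25 UMIs. Trh is above 0 in cells with Lefty2 (1.16 and 1.59) and not in Lefty1-only cells (-0.35), and Id1 lies at -0.11, -0.48 and -0.68 over the steps. Without 1 cell with 44 Id1 UMIs and its partner, the first of these Id1 values is -0.27.

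Lefty-positive cells hardly stood together in expression once both Lefty genes were left out. Among the 15 nearest neighbours of a Lefty-positive cell, in 50 principal components of counts thinned to 1000 UMIs, 20.7% on average were Lefty-positive. Around matched Lefty-zero cells this share was 19.1%, and 23.9% of all stem cells were positive. The cells are therefore described by their Lefty UMIs and not as a cluster.

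Barcodes and cells outside the rule gave a limited second look at the same genes. Among PD100 barcodes under 1000 UMIs, 47 with a Lefty UMI were set against 430 without, 27046 against 219670 UMIs in all. No endoderm limit, mitochondrial limit or matching on total UMIs was applied to these barcodes. Otx2 had 9 against 27 UMIs (333 and 123 CPM, log2 ratio 1.44, 0.16 to 2.57). Bmp4 had 0 against 39 UMIs, and the interval of its log2 ratio ended at -0.31. With 3 counts over the 47 barcodes in place of 0, it was 1.60-fold lower. For the ends as a whole the interval included a ratio of 1 and did not reach the value of the matched cells. The highest 12 genes summed to 0.22 (-0.28 to 0.69) in place of 1.13, and the lowest 12 to -0.16 (-0.71 to 0.36) in place of -1.12. Id1 stood at -0.02 (-0.43 to 0.37) and Trh at 0.21 (-0.67 to 1.00). In the 13 Lefty-positive PD800 cells, Id1 had 25 UMIs, and the interval of its ratio over the other PD800 cells (-0.87 to 0.33) includes both equality and the PD100 value.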

How the data were processed

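Count tables of the PD100 and PD800 libraries were used. The deposited values are raw counts (UMIs for each barcode and gene). The authors obtained them by running the inDrops pipeline against a GRCm38 transcriptome, whose annotation release is not given in the sources used here. Members, gene lists and comparisons were chosen with earlier results of these data known. Lefty-positive cells were matched 1 to 1 on total UMIs (within 25%, deepest first), and UMIs were summed. Intervals (95%) were exact conditional ones for ratios and exact Clopper-Pearson ones for shares. With 1 library per time point no test was made. Genes named were the 12 at either end by the interval end nearer to 1, Nodal list genes with 50 or more UMIs, other list genes past 1.5-fold, and 20 chosen genes. Thinning used seed 1 and neighbours the 2000 most variable genes. Doublets were called with Scrublet in Scanpy 1.11.5 at an expected rate of 5%. Software was SciPy 1.17.1, NumPy 2.4.6 and pandas 2.3.3 under Python 3.11.15, and the steps were tested on simulated data. Positions and transcripts came from GENCODE M21. A few items are not reported here.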

Additional observations from a re-analysis of the deposited data

Results flagged for a closer look

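Lefty UMIs were also found in PD100 barcodes that none of the main comparisons used. Of 477 barcodes under 1000 UMIs, with a median of 464 UMIs, 47 held a Lefty1 or Lefty2 UMI (9.85%, exact interval 7.33 to 12.9), 84 UMIs in all. This is above the 3 counts that a count of 0 would allow. Tdgf1 in these barcodes had 16 against 97 UMIs (log2 ratio 0.42, -0.44 to 1.19), Krt18 6 against 100 (-1.04, -2.52 to 0.14) and Tmsb4x 11 against 72 (0.31, -0.75 to 1.24). No endoderm limit or matching on total UMIs was applied to these barcodes. Whether they are cells, parts of cells or free RNA was not tested.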

How the results depend on the processing

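Of 1287 alternative values, 1183 planned and 104 chosen after seeing the data, 1220 stayed within the reported interval or within 1.5 times the count, 65 fell outside and 2, of Krt18 and Krt17, turned from past 1.5-fold to the other sign. Counting also genes and lists not past 1.5-fold, the sign differed in 28 of 936 gene ratios (15 of 52 genes) and 51 of 283 list medians (12 of 15 lists), 25 and 45 of them within the reported interval. A limit of 10% mitochondrial UMIs removed no stem cell, so values in that setting could not move. The share of Lefty-positive cells was 14.7% with 2 or more Lefty UMIs, 14.9% by Lefty1 alone and 14.0% by Lefty2 alone. Counts of genes at least 1.5-fold higher and lower were 88 and 85 with all Lefty-zero cells weighted by depth, 230 and 364 with these unmatched, 65 and 65 after thinning to 1000 UMIs, 604 and 617 with a minimum of 20 UMIs per gene, 3 and 8 with 200, 2193 and 2435 with no minimum, and 20 and 22 at 2-fold; with 2 Lefty-zero cells per member 252 were lower. Fewer or more genes entered under the other minimums, and for the other settings the cause was not tested. List medians (log2) moved to -0.30 (all Lefty-zero cells) and -0.16 (thinned) for BMP genes; 0.14 (Lefty2 alone) for core pluripotency; -0.35 (2 or more UMIs), -0.43 (Lefty2 alone) and -0.47 (thinned) for formative genes; -0.38, -0.29 and -0.24 in the same settings for the S100a6 group; -0.45 (2000 UMIs per cell), -0.36 (2 or more UMIs), -0.32 (Lefty2 alone) and -0.25 (all Lefty-zero cells) for DNA methylation enzymes; 0.13 (2000 UMIs per cell), -0.13 (Lefty2 alone) and -0.19 (thinned) for G2 and mitosis; and -0.20 (Lefty2 alone) for heat shock genes. Krt18 turned to 0.45 with members by Lefty1 alone, and Krt17 to -0.14 after thinning. No paired analysis was possible because each time point had 1 library, which also means that no replicate could be left out. Genes under 50 UMIs in both sets together were left out of the counts of genes, and at this depth their ratios have wide intervals.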
